A study of Mus musculus with 1298 samples.

Results

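Twist1, Twist2, Prrx1 and Prrx2 were chosen by name as 4 genes of 17634 in the 10× table, of 22894 in the Smart-seq2 table and of 22938 in the bulk table of this study, and all 4 were present in each. They were followed through the descendants of Pax7-expressing cells of the mouse dorsal trunk. All embryos carried Pax7-CreER and a Cre-dependent EYFP reporter and had received 1 dose of tamoxifen (75 µg per g body weight of the pregnant mother) at E9.5, so that cells with Pax7 active at that time, and everything derived from them, were labelled. YFP-positive cells of 3 stages (E12.5, E14.5, E16.5) were sorted and profiled as single cells with 1 10× library per stage and with Smart-seq2 plates. Embryos of a day were pooled, every group shared this treatment and label, and neither untreated nor reporter-negative cells were analysed here. By the sample labels, the 18 bulk libraries came from E16.5 cells freshly sorted as Pdgfra+ (4 libraries, Thy1+ and Thy1-) or as Pdgfra-/Cd36+ (2 libraries), and from E14.5 Pdgfra+ cells of both Thy1 gates cultured in DMEM (6 libraries) or in adipogenic medium, ADM (6 libraries). The Results of the paper instead give E14.5 for the sorted Pdgfra+/Thy1- cells, so the stage of those libraries is uncertain.

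Twist1 and Twist2 are closely related basic helix-loop-helix (bHLH) factors. They bind E-box DNA as dimers, mostly with the ubiquitous E proteins Tcf3, Tcf4 and Tcf12, and are known for holding mesenchymal cells in an undifferentiated state and for opposing myogenic bHLH factors such as Myod1. Twist2, also called Dermo1, is a long-used label of embryonic dermis. Prrx1 and Prrx2 are paired-related homeobox factors of the limb, craniofacial and body wall mesenchyme, with overlapping roles in the growth of connective tissue and skeleton.

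On GRCm38, as annotated in GENCODE vM21, Twist1 (ENSMUSG00000035799) lies on the plus strand at chr12:33957671-33959829 and no other annotated gene overlaps it. Twist2 (ENSMUSG00000007805) lies on the plus strand at chr1:91801461-91848028, and it overlaps the antisense gene Gm29100 and the sense-intronic gene Gm29101. Prrx1 (ENSMUSG00000026586) lies on the minus strand at chr1:163245119-163313710 and its span holds 3 further genes, of which Gm20471 is antisense. Prrx2 (ENSMUSG00000039476) lies on the plus strand at chr2:30834972-30881251 and no other annotated gene overlaps it. The sources used here do not state for each platform whether the counting used strand. Whether reads of the antisense neighbours entered the counts of Twist2 and Prrx1 was not examined.

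The 250 bases before the RefSeq start (GRCm38.p6) are shown for 3 of the genes because all of them differed between cell classes and each holds one of the motifs searched. Capitals mark CCAAT, or its reverse complement, in Twist1 (chr12:33957421-33957670, plus strand) and Twist2 (chr1:91801211-91801460, plus strand), and TAATTA, a core motif of homeodomain factors, in Prrx1 (chr1:163313651-163313900, minus strand, printed 5′ to 3′ along the gene).
Twist1: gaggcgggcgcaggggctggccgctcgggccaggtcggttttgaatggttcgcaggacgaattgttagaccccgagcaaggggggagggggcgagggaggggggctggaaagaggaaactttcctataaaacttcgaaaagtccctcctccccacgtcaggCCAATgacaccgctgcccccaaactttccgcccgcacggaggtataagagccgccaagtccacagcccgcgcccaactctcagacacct
Twist2: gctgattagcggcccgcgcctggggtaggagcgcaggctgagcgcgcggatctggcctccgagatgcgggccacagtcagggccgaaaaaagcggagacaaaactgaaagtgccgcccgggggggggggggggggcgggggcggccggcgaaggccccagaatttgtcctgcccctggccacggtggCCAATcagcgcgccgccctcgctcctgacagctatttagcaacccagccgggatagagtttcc
Prrx1: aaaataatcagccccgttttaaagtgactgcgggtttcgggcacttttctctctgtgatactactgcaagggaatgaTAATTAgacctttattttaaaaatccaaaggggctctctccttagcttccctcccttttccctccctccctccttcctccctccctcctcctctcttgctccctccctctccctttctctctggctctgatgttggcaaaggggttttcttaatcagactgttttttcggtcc
Both strands of each window were searched for 3 motifs, whose matches in the 4 windows did not overlap. The first, the E-box CANNTG that Twist factors bind, was in none of the 4 windows, Prrx2 included, although 66.2% of all 32851 RefSeq promoter windows of the same length hold it. CCAAT occurred once in Twist1, at base -89 from the start, and once in Twist2, at base -63, and is held by 33.8% of all windows. TAATTA occurred once, at base -173 of Prrx1, and is held by 4.84% of all windows. A match describes these letters only.

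Of 3916 deposited cells 3852 passed the limits the methods state. The median depth of a 10× cell was 2185 UMIs for E12.5, 5930 for E14.5 and 1607.5 for E16.5, and between 393416 and 829590 expected counts on Smart-seq2. Cells were clustered across both platforms without the 4 genes and without the genes of the pathway lists below. The 17 clusters were named from fixed marker sets as early (EP-like) and late (LP-like) mesenchymal progenitors, dermal fibroblasts (DF-like), brown adipocytes (BA-like), early (EM-like) and late (LM-like) myogenic cells, neural cells (N-like) and pericytes (PE-like), with the class letters of the study. The threshold for a name was set after the clusters were seen. The EP-like name is the weakest by marker level, since its cluster of 410 cells had a mean marker z-score of only 0.264 (next class 0.004). The leading genes of the EP-like cluster, of the LP-like clusters 2 and 11, which hold 500 of the 756 LP-like cells, of the E12.5 EM-like cluster 8 and of 3 N-like clusters included no marker of their class. Cluster 2 was led on 10× by Tnmd and Col2a1, a tendon and a cartilage gene, and cluster 8 by Afp and Alb, genes of the liver. The main tests were therefore repeated without cluster 2, without clusters 2 and 11 and without cluster 8, where these entered, a choice made after seeing the data. On 10×, LP-like cells of E14.5 were mostly of clusters 2 and 11 and those of E16.5 of cluster 5, DF-like cells mostly of cluster 10 and then of cluster 4, and EM-like cells of clusters 8, 3 and 13 on the 3 days, so that a change with stage within a class was also a change of cluster. The 9 EP markers summed to 401.4 and 546 CPM in EP-like cells and to between 320.7 and 1177 CPM in LP-like cells, where CPM is the number of counts per 1000000 counts of all genes in the sum. The LP-like clusters also carried cartilage and tendon genes, whose 4 tendon markers summed to between 234.9 and 939 CPM in LP-like cells and between 13.1 and 38.5 CPM in DF-like cells. Keratinocyte markers summed to at most 39.9 CPM in LP-like and DF-like cells. The part of these markers in the results was not tested. Each 10× library shared 1 barcode with each other 10× library.

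Twist2 had its highest level in DF-like cells on both platforms. Its 10× level, summed over the cells of a class and given as CPM, was 644 CPM at E14.5 (95% Poisson interval 595 to 696) and 1095 CPM at E16.5 (1001 to 1196). In LP-like cells of the same libraries it was 55.1 CPM (45.6 to 65.8) and 78.9 CPM (53.2 to 112.6), and in E12.5 EP-like cells it was 108.8 CPM (82.6 to 140.6). The intervals of the dermal sums lay far above those of the other classes with at least 20 cells, which on 10× had at most 25.99 CPM, a value that rests on 2 UMIs in LM-like cells at E16.5. On Smart-seq2 the DF-like sums were 493.4 and 1040 CPM, the LP-like sums 28.97 and 55.7 CPM, the EP-like sum 105.2 CPM, and no EM-like, LM-like or N-like sum was above 4.53 CPM. The intervals cover counting error within 1 library and not the spread between embryos.

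The same order held per cell. At E16.5 on 10×, 72.99% of DF-like cells (exact binomial 95% interval 67.7 to 77.8; median depth 1357 UMIs) had a Twist2 UMI, against 9.70% of LP-like cells (6.25 to 14.2; 1469 UMIs) and 1.32% of EM-like cells (0.161 to 4.70; 1721 UMIs). After thinning each cell to 1000 UMIs the shares were 63.3% of 270 DF-like cells and 7.41% of LP-like cells. On Smart-seq2 every one of 69 DF-like cells at E16.5 and 47 of 49 at E14.5 had a Twist2 read. At E16.5 the median depth of these DF-like cells was 922510 counts, and of 95 LP-like cells with a median of 775281 counts 48.4% had a Twist2 read.

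Twist1 was more evenly spread over the mesenchymal classes. On 10× its level was 198.8 CPM in EP-like cells (162.8 to 240), 65.2 CPM (54.9 to 76.8) and 57.8 CPM (36.3 to 87.6) in LP-like cells at E14.5 and E16.5, and 132.6 CPM (110.9 to 157.2) and 252.7 CPM (208.4 to 303.6) in DF-like cells. On Smart-seq2 EP-like cells had 17.7 CPM, LP-like cells 9.18 and 3.24 CPM, and DF-like cells 32.9 and 14.4 CPM. DF-like sums were above LP-like sums of the same stage on both platforms, while the EP-like sum lay between both DF-like sums on each platform. Levels were compared within a platform only.

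In the myogenic and neural classes Twist1 was highest in the 10× library of E12.5. There it had 62.9 CPM (42.1 to 90.3) in EM-like cells, 54.4 CPM (19.96 to 118.4) in LM-like cells and 21.6 CPM (15.4 to 29.5) in N-like cells, whereas Smart-seq2 gave 1.56 CPM in EM-like cells and no read in any N-like cell, which allows a share of cells with a read, not of cells that express the gene, of up to 2.86% (upper bound of the exact 95% interval). At E14.5 and E16.5 the EM-like 10× values were 3.93 and 3.67 CPM, the latter from 1 UMI.

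Prrx1 was the most widely found of the 4 genes. On 10× it had 328.2 CPM (281.4 to 380.6) in EP-like cells, 149.1 CPM (133.3 to 166.2) and 131.5 CPM (97.6 to 173.3) in LP-like cells at E14.5 and E16.5, and 322.4 CPM (288.1 to 360) and 350 CPM (297.7 to 409.3) in DF-like cells. On Smart-seq2 EP-like cells had 527.6 CPM, LP-like cells 177.6 and 126.7 CPM, and DF-like cells 426.1 and 264.6 CPM. The EP-like and DF-like sums overlapped on 10×, and both lay above the LP-like sums.

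Prrx1 was also found in EM-like cells, the early myogenic class, at every stage. These had 36.9, 28.04 and 29.3 CPM on the 3 successive days on 10×, with overlapping intervals (21.5 to 59.01, 20.8 to 36.97 and 12.7 to 57.8), and 43.2, 61.4 and 78.3 CPM on Smart-seq2. Of the Smart-seq2 EM-like cells 64.6% of 48, 87.5% of 56 and 84.5% of 58 had a Prrx1 count. Such shares were high in unrelated cells too, at 93.3% of N-like cells at E14.5 (median depth 695075 counts, against 757544 in EM-like cells), but the summed level there was only 5.07 CPM. On 10× at E12.5, however, the N-like clusters 0 and 7 had 27.2 CPM (19.6 to 36.7) and 49.96 CPM (26.6 to 85.4) of Prrx1. Both intervals overlap that of EM-like cells of the same library, so there the EM-like level did not stand above the neural one. After thinning to 100000 counts, 60.7% of 56 EM-like cells and 41.5% of N-like cells of E14.5 kept a Prrx1 count. Smart-seq2 counts are estimates that need not be whole, so a cell with a count may hold less than 1 read.

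Prrx2 followed the mesenchymal classes at lower counts. On 10× it had 138.8 CPM (108.99 to 174.3) in EP-like cells, 77.5 CPM (66.3 to 90.2) and 15.8 CPM (5.79 to 34.3, from 6 UMIs) in LP-like cells, and 236.01 CPM (206.8 to 268.2) and 106.4 CPM (78.4 to 141.1) in DF-like cells. On Smart-seq2 EP-like cells had 28.3 CPM, LP-like cells 18.9 and 7.07 CPM, and DF-like cells 28.1 and 25.3 CPM. The intervals of DF-like and LP-like sums of the same 10× library did not overlap, while on Smart-seq2 the EP-like and E14.5 DF-like values were nearly equal. No EM-like, LM-like or N-like sum of Smart-seq2 was above 1.88 CPM.

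**Figure D1:**
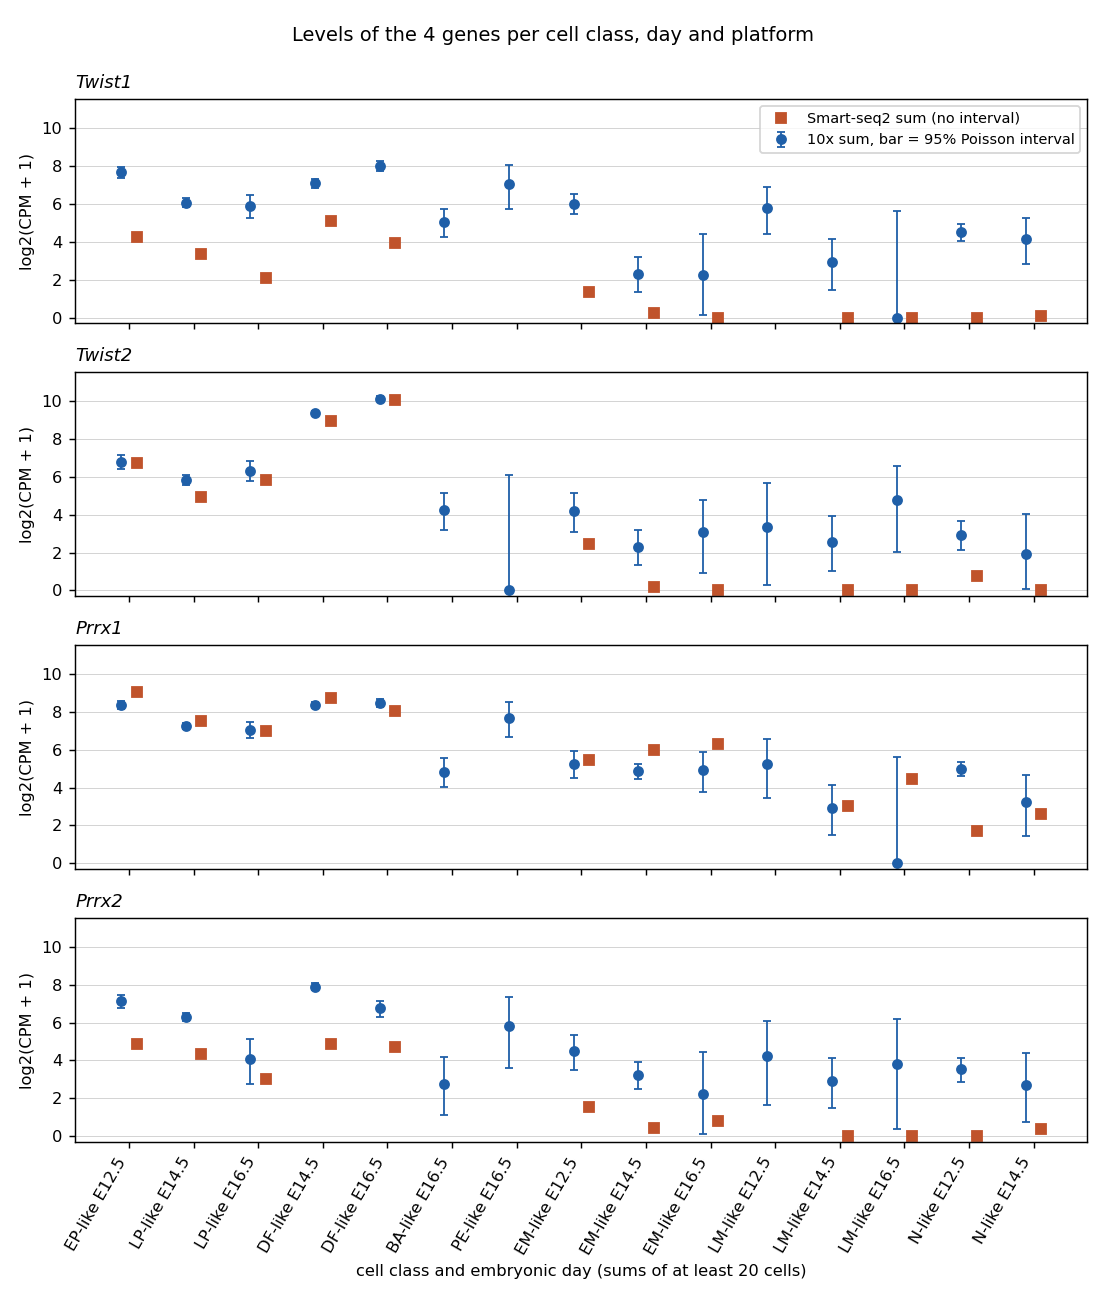
Level of each gene as log2(CPM + 1) in sums of at least 20 cells per class and embryonic day, for 10× (circles, bars are exact 95% Poisson intervals) and Smart-seq2 (squares). Twist2 stands highest in both DF-like sums (1095 CPM at E16.5 on 10×), and on Smart-seq2 Prrx1 has 43.2 to 78.3 CPM in EM-like sums, while Twist1, Twist2 and Prrx2 have at most 4.53 CPM in EM-like, LM-like and N-like sums.

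Because Smart-seq2 covers whole transcripts, levels of different genes were compared there per kilobase of exon (1.63 kb for Twist1, 3.17 kb for Twist2, 11.1 kb for Prrx1 and 1.96 kb for Prrx2). These lengths merge the exons of all annotated transcripts of a gene, 5 for Prrx1, 4 for Prrx2, 2 for Twist2 and 1 for Twist1. The expressed transcripts may be shorter, and the order of genes per kilobase, here and in bulk, rests on these lengths. In DF-like cells Twist2 led with 155.4 and 327.8 CPM per kb at E14.5 and E16.5, followed by Prrx1 with 38.5 and 23.9 CPM per kb. In EP-like cells Prrx1 led with 47.7 CPM per kb, followed by Twist2 with 33.2 CPM per kb. The order of the 2 leading genes was therefore opposite in the EP-like and DF-like sums. In LP-like cells Prrx1 led at E14.5, with 16.05 against 9.13 CPM per kb for Twist2, and Twist2 led at E16.5, with 17.6 against 11.45 CPM per kb. These values carry no error beyond that of their plates, over which the LP-like Twist2 level of E16.5 ranged from 14.2 to 98.2 CPM in 4 plates. In EP-like cells 6 plates ranged from 77.05 to 170.2 CPM of Twist2 and from 319.3 to 785.3 CPM of Prrx1. Per kilobase these ranges overlap, so the EP-like order is not secure.

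The split within each pair shifted between classes. On 10×, Twist2 made up 35.4% of the Twist1 and Twist2 UMIs of EP-like cells (exact 95% interval 28.1 to 43.2), 45.8% (39.7 to 52.04) and 57.7% (43.2 to 71.3) in LP-like cells at E14.5 and E16.5, and 82.9% (80.1 to 85.5) and 81.2% (77.9 to 84.3) in DF-like cells. The DF-like intervals lay above those of both progenitor classes, and those of the 2 DF-like stages overlapped. Prrx1 made up 70.3% (64.2 to 75.9) of the Prrx1 and Prrx2 UMIs in EP-like cells, 65.8% (61.4 to 69.97) and 89.3% (78.1 to 95.97) in LP-like cells, and 57.7% (53.5 to 61.9) and 76.7% (70.3 to 82.3) in DF-like cells. Within LP-like and within DF-like cells the Prrx1 share was higher at E16.5 than at E14.5, with intervals that did not overlap, but the 10× cells of these days lay in different clusters. On Smart-seq2 the Prrx1 share went from 90.4% to 94.7% in LP-like cells and, the other way, from 93.8% to 91.3% in DF-like cells. Smart-seq2 sums gave Twist2 85.6% of the pair in EP-like cells, 75.9% and 94.5% in LP-like cells and 93.7% and 98.6% in DF-like cells. There the EP-like share was above the LP-like share of E14.5. The LP-like share of E16.5 was above the DF-like share of E14.5. The class order of 10× was thus not seen on Smart-seq2, and the split depends on the platform and was read only within one.

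**Figure D2:**
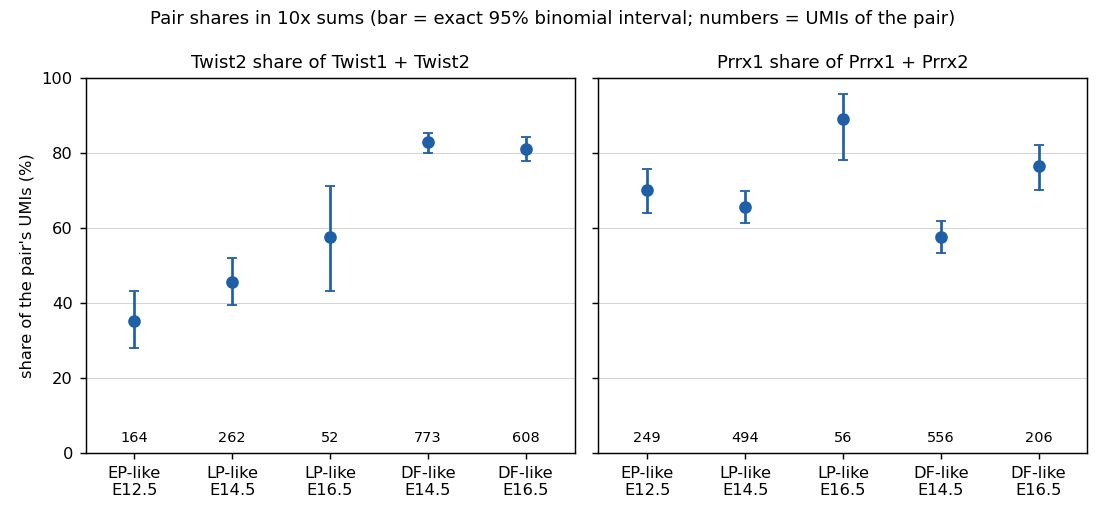
Share of Twist2 in the UMIs of Twist1 and Twist2 (left) and of Prrx1 in those of Prrx1 and Prrx2 (right) for 5 10× sums; bars are exact 95% binomial intervals and the numbers give the UMIs of the pair. The Twist2 share is 35.4% in the EP-like sum and 82.9% and 81.2% in the DF-like sums.

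How often the 4 genes met in 1 cell was read from Smart-seq2. All 4 were counted together in 51.02% of the DF-like cells of E14.5 (25 of 49), in 31.9% of those of E16.5 (22 of 69), in 21.8% of EP-like cells (26 cells), in 1 of 52 and 2 of 95 LP-like cells, and in no EM-like, LM-like or N-like cell. Every DF-like cell had at least 2 of them. At E16.5, 49 of 58 EM-like cells had Prrx1 and none had Twist1 or Twist2. In EP-like cells, 71.01% of the 69 cells with a Twist1 count also had Twist2, against 22 of the 50 cells without Twist1. In LP-like cells the same numbers were 11 of 27 and 10 of 25 at E14.5. Cell depth was not held equal in these shares, and cells of a plate are not replicates.

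**Figure D3:**
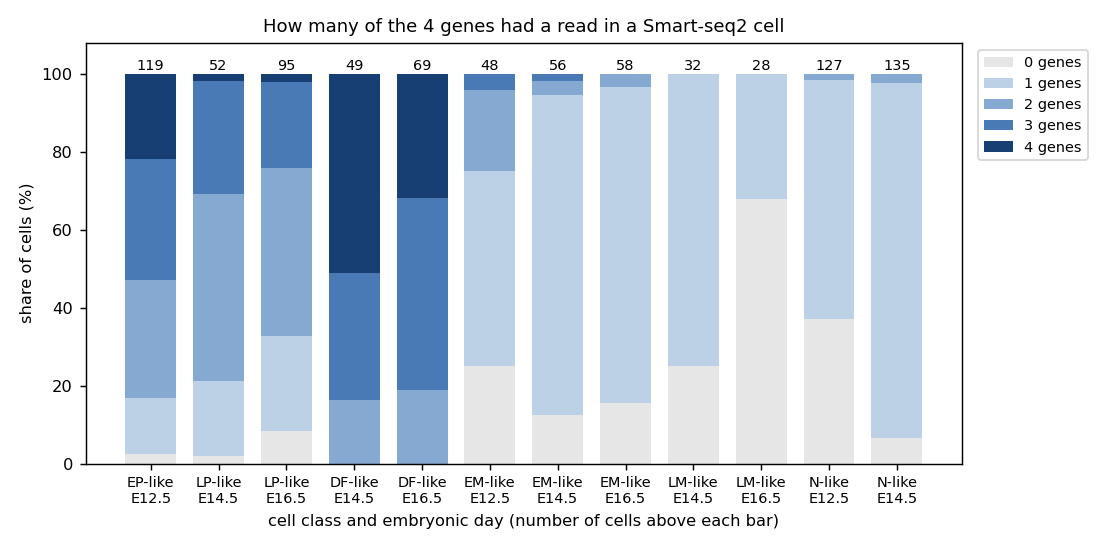
Share of Smart-seq2 cells (percent, cell numbers above the bars) with a count for 0 to 4 of the genes, by class and embryonic day. All 4 genes met in 51.02% of DF-like cells at E14.5 and in none of the EM-like, LM-like or N-like cells.

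Whether dermal and progenitor cells of the same library differed was tested on the 8 sums of the 4 pools (a pool is 1 platform at 1 stage) that held at least 20 cells of both classes, with the pool as a block. All 4 genes were higher in DF-like cells, Twist2 by the most. Twist2 was 15.3-fold higher (log2 fold change 3.93, SE 0.17, adjusted p = 1.78e-06 in edgeR, quasi-likelihood F test, Benjamini-Hochberg over 14210 genes), Twist1 3.41-fold (1.77, SE 0.23, adjusted p = 0.00082), Prrx2 2.80-fold (1.48, SE 0.27, adjusted p = 0.00597) and Prrx1 2.28-fold (1.19, SE 0.14, adjusted p = 0.000427). Of all genes tested 11.3% were called in this comparison. With cluster 2 left out all 4 were still called (Twist2 3.93, Twist1 2.04, Prrx1 1.44 and Prrx2 2.61), and with clusters 2 and 11 left out, on the 4 sums of E16.5, the log2 fold changes were 3.17, 2.27, 1.15 and 2.16. The Prrx2 call was lost without the 10× pool of E14.5 (adjusted p = 0.0603), and on the 4 Smart-seq2 sums alone only Twist2 was still called (adjusted p of the others between 0.0922 and 0.347). Pools share embryos only within a day, and the p-values measure the spread between 4 pools of unlike platforms. On simulated counts the share of false calls ran above the nominal level for most class comparisons. The adjusted p-values of class tests, here and below, may therefore be too small. The DF-like effect was not found to change from E14.5 to E16.5 for any of the 4 (interaction in edgeR, lowest adjusted p = 0.138, for Prrx2, with 4.06% of all genes called).

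Of 9 bHLH partners and inhibitors, 7 were tested and 5 were higher in DF-like cells, with a list median log2 fold change of 0.72 against -0.05 over all genes. Tcf4, an E protein that dimerises with Twist factors, was higher by 1.48 (SE 0.13, adjusted p = 9.78e-05, edgeR), Id4 by 1.29 and Id1 by 1.012, both inhibitors that bind E proteins without binding DNA, Id2 by 0.72 and Tcf3, named after its value was seen, by 0.66. Of 22 other mesenchymal transcription factors 20 were tested, of which 4 were higher, 5 lower and 11 not called. Those lower were led by the tendon and cartilage regulators Scx (-5.94) and Sox9 (-4.29) and by Meox2 (-5.58) and Meox1 (-4.66), which are themselves EP markers used for naming. Of 5 paired-type homeobox relatives tested, Shox2 was higher (2.86, SE 0.52, adjusted p = 0.00606). Of 12 genes tested of the adhesion and matrix list, which also holds Vim and the receptor genes Fgfr1 and Fgfr2, 4 were higher. Among these were Fgfr2 (2.62) and Cdh11 (1.22), and 3 were lower, among them the N-cadherin gene Cdh2 (-2.53) and the LP marker Postn (-2.31). Of 6 myogenic factors Mef2c (3.35) and Mef2d (0.92) were higher, and of 5 brown fat genes tested none was called.

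The mesenchymal and myogenic branches were set against each other in all 6 pools, with EP-like cells at E12.5 and LP-like cells later. All 4 genes were higher in the progenitors, Twist2 by 44.5-fold (log2 fold change 5.47, SE 1.014, adjusted p = 0.00388, edgeR over 13976 genes), Twist1 by 16.4-fold (4.03, SE 0.64, adjusted p = 0.00192), Prrx2 by 12.6-fold (3.66, SE 0.43, adjusted p = 0.000366) and Prrx1 by 4.55-fold (2.19, SE 0.34, adjusted p = 0.00173). Of all genes 24.4% were called. With clusters 2 and 11 left out Twist1 and Twist2 were not called (3.53 and 5.22, adjusted p = 0.0544 and 0.0966), while Prrx1 and Prrx2 were. Twist1 and Twist2 had no read in EM-like cells at E16.5 on Smart-seq2, so their fitted folds depend in part on the prior count. On the 6 Smart-seq2 sums alone none of the 4 calls held, with adjusted p between 0.110 and 0.175 in edgeR. In the same comparison the myogenic factors Myod1 (-9.39), Myf5 (-7.36) and Myog (-6.75), markers of the myogenic classes, were lower, which the naming of the classes fixes. Of 12 genes tested of the adhesion and matrix list 11 were higher, led by Fgfr2 (6.64) and Col1a1 (5.12). Of 7 paired-type relatives tested, Shox2 was higher (4.11, adjusted p = 0.0184) and Pitx3 (-10.24) was lower. Runx2 (6.70), Osr1 (4.80) and Osr2 (2.76) were among 7 of 22 other mesenchymal factors that were higher, while 2 were lower. Id4 (1.03) and Id2 (0.96) were higher among 8 bHLH partners and inhibitors tested, with no other called. Of 5 brown fat genes tested, Pparg, a BA marker, was higher (5.83, adjusted p = 0.0151).

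The excess of Prrx1 in progenitors over EM-like cells fell by 0.54 log2 units per embryonic day (SE 0.12, adjusted p = 0.0359, edgeR, an interaction added after the data were seen, with 3.33% of all genes called), while Twist1 (1.17 per day, adjusted p = 0.0574), Twist2 (1.42, adjusted p = 0.0987) and Prrx2 (0.01, adjusted p = 1) were not called. The progenitors were EP-like at E12.5 and LP-like later, so class and day cannot be told apart here. The Prrx1 call was lost in 7 of 18 alternatives, among them 10× alone (-0.24, adjusted p = 0.597). Within EM-like cells alone, Twist1 fell by 1.52 log2 units per day (SE 0.28, adjusted p = 0.00383, 4.47% of all genes called), a call that was lost without the 10× library of E12.5, although the estimate stayed at -1.50 (SE 0.66, adjusted p = 0.367). EM-like cells of E12.5 were of cluster 8 and later ones of clusters 3 and 13, so this trend compares different clusters. With cluster 8 left out Twist1 and Twist2 no longer entered the test, so the Twist1 call could not be checked without that cluster. Twist2 (-1.34 per day, adjusted p = 0.149, and 0.0474 and 0.0241 with the 10× sum of E16.5 or the Smart-seq2 sum of E14.5 left out), Prrx2 (-0.34, adjusted p = 0.551) and Prrx1 (0.19, adjusted p = 0.394) were not called. In the same fit Meox1 (-2.28), Zic1 (-0.58) and Cdh11 (-1.015) fell, and Vim (0.49), Tnc (0.42), Postn (0.40) and, named after its value was seen, Sparc (0.40) rose per day, as did Myod1 (0.39).

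From the early to the late myogenic class, Prrx1 was lower. In 5 pools with both classes it was 0.26 of the EM-like level (log2 fold change -1.94, SE 0.41, adjusted p = 0.000797, edgeR over 10145 genes, of which 23.8% were called). LM-like Prrx1 values were 36.3, 6.53 and 0 CPM on 10× and 7.20 and 20.7 CPM on Smart-seq2, the first from 4 UMIs in 35 cells. The call was lost on either platform alone (adjusted p = 0.134 on 10× and 0.0576 on Smart-seq2). Twist1 (-0.65, adjusted p = 0.704), Twist2 (-0.33, adjusted p = 0.889) and Prrx2 (-1.70, adjusted p = 0.378) were not called, and all 3 had no read in LM-like cells on Smart-seq2. Genes of the adhesion and matrix list fell with Prrx1, 7 of 11 tested, with Postn (-8.93), Cdh2 (-8.22), Tnc (-4.70) and Fn1 (-4.58) the largest. The Id genes Id2 (-2.15) and Id3 (-1.25) and the E protein gene Tcf3 (-0.90) fell, and Tcf12 (0.65) rose. Of the myogenic factors Mef2c (4.16), Myog (3.72) and Mef2a (2.19) rose and Myf5 (-5.23) fell. Of 12 other mesenchymal factors Tbx15 (2.46), Zeb1 (1.006) and, named after its value was seen, Snai1 (0.89) rose and Osr2 (-3.05) and En1 (-1.97) fell. Prdm16 (-5.02) fell among 3 brown fat genes tested, and neither of 2 paired-type relatives tested was called.

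No stage held both LP-like and EP-like cells, so class and day cannot be told apart. In 6 sums with the platform as a term none of the 4 genes was called, although all 4 estimates were below 0, at -1.23 (SE 0.37, adjusted p = 0.0821) for Twist1, -1.13 (SE 0.33, adjusted p = 0.0722) for Prrx1, -0.91 (SE 0.49, adjusted p = 0.335) for Prrx2 and -0.61 (SE 0.42, adjusted p = 0.48) for Twist2 by edgeR over 14090 genes. Of all genes 5.34% were called. With cluster 2 left out Twist1 (-1.91), Prrx1 (-1.48) and Prrx2 (-2.14) were called, and with clusters 2 and 11 left out the Twist2 estimate was 0.60. By DESeq2 Twist1 and Prrx1 were called (adjusted p = 0.0167 and 0.000188), and by edgeR both were called with the Smart-seq2 sum of E14.5 (adjusted p = 0.00755 and 0.0484) or of E16.5 (0.0249 and 0.0204) left out. Msx1 (-8.87), Msx2 (-5.04) and Alx1 (-6.08), homeobox genes of early mesenchyme, fell from EP-like to LP-like cells, while Postn (4.81), Col1a1 (3.46), Col3a1 (3.17) and Sparc (3.16) led 7 of 12 adhesion and matrix list genes that rose. Meox2 (2.92) and Osr2 (2.66) also rose, as did Pparg (7.90). None of 8 bHLH partners and inhibitors and none of 6 myogenic factors was called.

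From E14.5 to E16.5 none of the 4 was called within LP-like cells (lowest adjusted p = 0.386, for Prrx2 at -1.50, with 0.674% of 13646 genes called by edgeR) or within DF-like cells (lowest adjusted p = 0.622, for Twist2 at 1.197, with 0.692% of 13006 genes called). Each fit had 4 sums. Without adjustment, p was 0.0101 for Prrx2 in LP-like cells and 0.0246 for Twist2 in DF-like cells. Twist2 values of E16.5 were above those of E14.5 in both classes on both platforms, and Prrx2 values below, as the levels above show, but the stages of a class lay mostly in different clusters on 10×. No gene of the 6 pathway lists was called in either fit.

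BA-like cells, the brown adipocytes, were frequent only in the 10× library of E16.5, so they were set against LP-like cells of that library without a test. Per UMI on the genes of both platforms, Prrx1 had 0.203 of the LP-like level (14 against 50 UMIs; conditional exact 95% interval 0.104 to 0.374) and Twist2 0.218 (9 against 30 UMIs; 0.091 to 0.471). Twist1 had 0.528 (16 against 22 UMIs; 0.259 to 1.05) and Prrx2 0.363 (3 against 6 UMIs; 0.0588 to 1.70), whose intervals include 1. The ratios of Prrx1 and Twist2 were below 1 beyond counting error, and for Twist1 and Prrx2 no difference was detectable at this depth. The 14 BA-like cells of E16.5 on Smart-seq2 had 31.5 CPM of Prrx1, 12.3 CPM of Twist2, 7.98 CPM of Twist1 and no Prrx2 read, so that Twist1 was there above the LP-like 3.24 CPM. BA-like cells had a median depth of 3032 UMIs, against 1469 for LP-like cells. Brown adipocyte markers summed to 13520 CPM in BA-like and 381.3 CPM in LP-like cells.

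**Figure D4:**
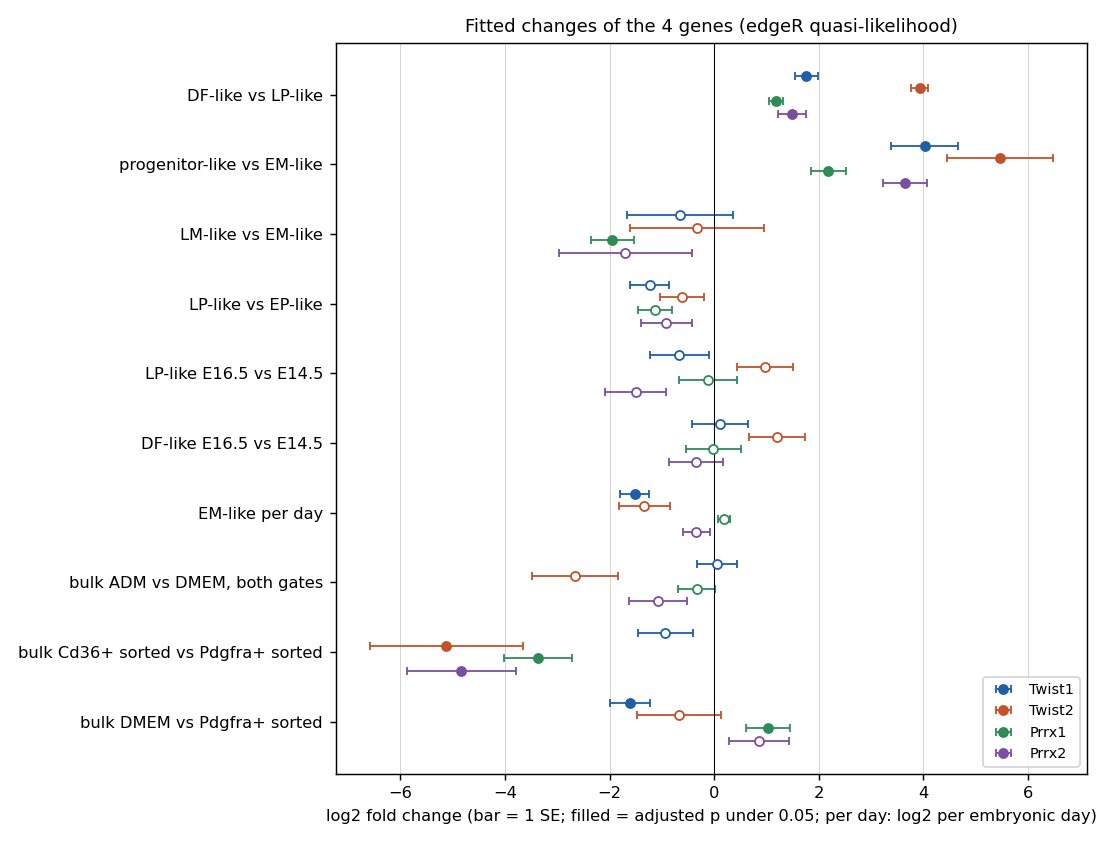
Fitted log2 fold changes (edgeR quasi-likelihood; bars are 1 SE) of the 4 genes in 7 single-cell and 3 bulk comparisons; filled points passed an adjusted p of 0.05, and the EM-like values are per embryonic day. All 4 genes are filled and above 0 for DF-like against LP-like and for progenitor-like against EM-like cells, with Twist2 farthest at 3.93 and 5.47.

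The bulk libraries were deposited with column names that do not show which of the 2 Thy1 gates a library came from, so both gates were kept together in each group and Thy1+ was not compared with Thy1-. Total counts per library ranged from 3390851 to 35332908. The sorted libraries met their gates, with Pdgfra at 271.8 to 487.6 CPM in Pdgfra+ and 6.03 to 8.41 CPM in Cd36+ libraries, and Cd36 at 51.6 to 280.98 and 1262 to 1510 CPM. Pax7 had no read in any of the 12 cultured libraries. In bulk samples, fewer cells of a type and less RNA per cell cannot be told apart. Sorted libraries are technical duplicates and cultured ones are wells, so the p-values below do not measure the spread between embryos. The Pdgfra+ sorted, DMEM and ADM groups each hold libraries of 2 gates, and the fits had no term for the gate. The p-values therefore include the spread between gates besides that between duplicates or wells.

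Libraries of a group stood far apart in Twist2 and in Thy1, the surface protein of the gate. The 4 sorted Pdgfra+ libraries had 154.2, 17.5, 104.3 and 8.08 CPM of Twist2 and, in the same order, 109.3, 5.87, 86.2 and 4.77 CPM of Thy1. The 2 sorted Cd36+ libraries had 1.77 and 1.58 CPM of Twist2. The 6 DMEM libraries had 2.77 to 45.8 CPM (median 13.2) and the 6 ADM libraries 0.0850 to 7.23 CPM (median 1.82). All Pdgfra+ sorted libraries were above both Cd36+ libraries, while the DMEM and ADM ranges overlapped. In order of Twist2 the DMEM libraries had 2.77, 6.16, 6.57, 19.8, 27.3 and 45.8 CPM, with Thy1 at 5.97, 8.06, 9.03, 54.7, 64.8 and 59.05 CPM. The ADM libraries had 0.0850, 0.357, 0.695, 2.95, 4.498 and 7.23 CPM of Twist2, with Thy1 at 2.38, 1.43, 0.992, 28.6, 25.6 and 32.3 CPM. In each of these 3 groups the libraries highest in Thy1 were also those highest in Twist2, and the part of the gate in the spread was not tested, since the gate of a library was not taken from its values.

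Twist1 was low in all bulk libraries. It had 15.8, 7.72, 11.4 and 3.83 CPM in sorted Pdgfra+ and 3.42 and 5.01 CPM in sorted Cd36+ libraries, and 0.736 to 1.82 CPM (median 1.21) in DMEM and 0.255 to 2.39 CPM (median 0.799) in ADM. No cultured library reached the lowest sorted one.

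By the median of its libraries, Prrx1 was the most abundant of the 4 per kilobase in each of the 4 groups except the Cd36+ libraries, where Twist1 had 2.59 against 2.25 CPM per kb. These medians run over both gates and do not give the order in each library. In the sorted Pdgfra+ library with 154.2 CPM of Twist2 and 420 CPM of Prrx1, Twist2 was the higher per kilobase. Prrx1 had 420, 206.7, 431.8 and 184.05 CPM in sorted Pdgfra+ libraries, 23.3 and 26.5 CPM in sorted Cd36+ libraries, 171.7 to 319.2 CPM (median 257.9) in DMEM and 41.2 to 353.01 CPM (median 178.4) in ADM. The ADM range spanned that of DMEM, with no ADM library between 47.1 and 309.8 CPM. In the order of Twist2 above, Prrx1 was 171.7, 221.7, 196.8, 294.2, 314.6 and 319.2 CPM in DMEM and 41.2, 47.1, 46.6, 353.01, 309.8 and 315.2 CPM in ADM libraries. Prrx2 had 8.55, 3.04, 6.64 and 1.37 CPM in sorted Pdgfra+, 0.0804 and 0.182 CPM in sorted Cd36+, 0.624 to 6.59 CPM in DMEM and 0.17 to 2.95 CPM in ADM libraries.

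**Figure D5:**
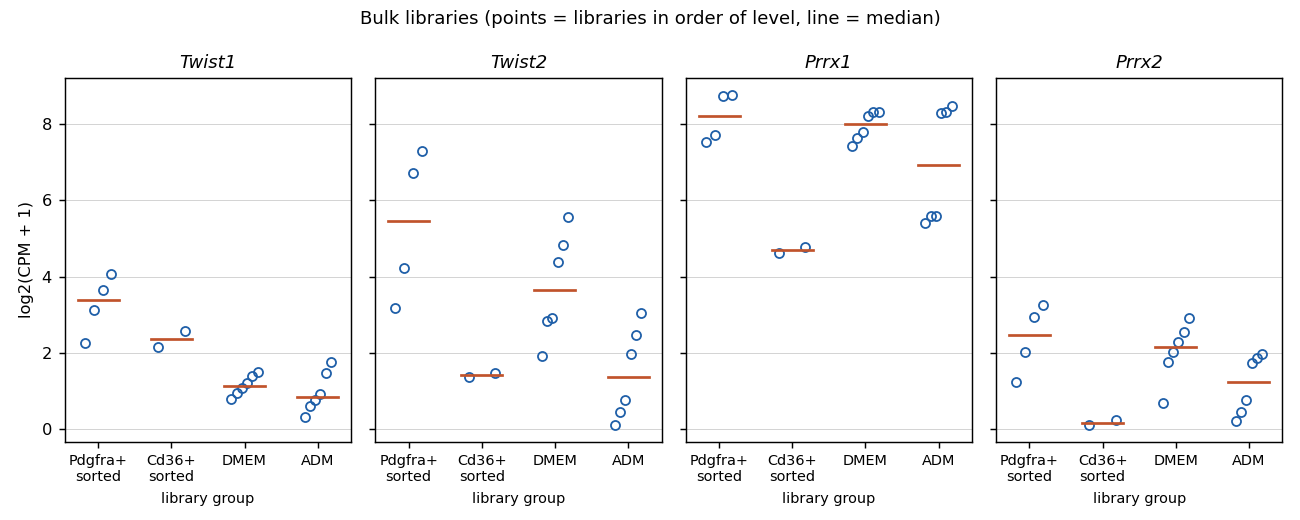
Level of each gene as log2(CPM + 1) in the bulk libraries (points, sorted by level within a group; line, median) of 4 sorted Pdgfra+, 2 sorted Cd36+, 6 DMEM and 6 ADM libraries. The 2 Cd36+ libraries lie below all Pdgfra+ sorted libraries for Twist2, Prrx1 and Prrx2, and the ADM libraries overlap those in DMEM for all 4 genes.

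Freshly sorted Cd36+ cells had less of 3 of the 4 genes than freshly sorted Pdgfra+ cells. Whether all of these were of the same stage is uncertain, since labels and paper differ for the Pdgfra+/Thy1- cells. In a fit over all 18 libraries, Twist2 was lower by 5.12 log2 units (log2 fold change -5.12, SE 1.46, adjusted p = 0.0139, edgeR over 17586 genes), Prrx2 by 4.84 (-4.84, SE 1.05, adjusted p = 0.00264) and Prrx1 by 3.37 (-3.37, SE 0.65, adjusted p = 0.0012), while Twist1 was not called (-0.94, SE 0.52, adjusted p = 0.185). Of all genes 31.8% were called, and this comparison was added after the gate labels proved unreadable. The Twist2 call was lost when either Cd36+ library was left out (adjusted p = 0.101 and 0.118). Twist1 was called when both libraries of a replicate number were summed (adjusted p = 0.0263). In the same fit 12 of 20 other mesenchymal factors tested were lower and none higher, led by Foxd1 (-6.87), Osr1 (-5.47), Snai1 (-5.23) and Runx2 (-5.09). Of 13 adhesion and matrix list genes 9 were lower, led by Cdh11 (-6.02) and Col1a2 (-5.66), and of 7 bHLH partners and inhibitors 5 were lower, with Tcf4 at -3.13 and Id4 at -2.06. Shox2 was lower too (-8.53). Of 6 myogenic factors 5 were lower, among them Mef2c (-4.82) and Myod1 (-3.87, from at most 3.45 CPM). Of 8 brown fat genes 4 were higher, namely Ucp1 (6.46), Cpt1b (6.28), Ppargc1a (6.01) and Prdm16 (3.98).

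Adipogenic medium against DMEM gave no call for any of the 4 genes over both gates. Twist2 came nearest at -2.66 (SE 0.82, adjusted p = 0.0511), with Prrx2 at -1.07 (SE 0.55, adjusted p = 0.226), Prrx1 at -0.33 (SE 0.36, adjusted p = 0.594) and Twist1 at 0.05 (SE 0.39, adjusted p = 0.962), by edgeR with 9.16% of all genes called. When both libraries of a replicate number were summed, Twist2 (-2.57, adjusted p = 9.54e-05, edgeR), Prrx2 (-1.08, adjusted p = 0.0188) and Prrx1 (-0.34, adjusted p = 0.0493) were called. Each sum held both gates, but in proportion to library depth. In replicate 3 the libraries had 11758559 and 3390851 counts in ADM and 35332908 and 22581717 in DMEM. The gates were therefore not balanced between the media. Twist2 was also called by DESeq2 (adjusted p = 0.00702) and when any of 3 single libraries was left out, 2 of ADM (adjusted p = 0.0254 and 0.0484) and 1 of DMEM (0.0427). Of 8 brown fat genes Ucp1 (12.70), Cidea (8.504) and Acadm (4.03) were higher in ADM. Ucp1 had 823 to 872 CPM in 3 ADM libraries, those with 41.2 to 47.1 CPM of Prrx1, and no read in the other 3. None of the genes of the other 5 lists was called.

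By the sample labels, cultured E14.5 cells in DMEM and fresh E16.5 Pdgfra+ cells differ in culture and in stage, which cannot be told apart. For the sorted Pdgfra+/Thy1- cells the paper gives E14.5, so their difference in stage is uncertain. Twist1 was lower in culture (-1.61, SE 0.38, adjusted p = 0.0019, edgeR), Prrx1 was higher (1.03, SE 0.41, adjusted p = 0.0435), and Twist2 (-0.66, SE 0.80, adjusted p = 0.502) and Prrx2 (0.85, SE 0.57, adjusted p = 0.218) were not called, where 53.9% of all genes were called and the median log2 fold change of all genes was -0.31. The Prrx1 call was lost in 8 of 16 alternatives, among them the replicate block (adjusted p = 0.0761). Its CPM without composition scaling lay the other way, with a median of 257.9 CPM in DMEM and 313.3 CPM in sorted libraries, as did that of Prrx2 (3.47 and 4.84 CPM), so that the direction of both rests on the scaling. Without 1 of the sorted libraries the Twist2 estimate was 0.04 (adjusted p = 0.977). Cdh11 (3.42), Tnc (2.23) and Sparc (2.12) were among 6 of 13 adhesion and matrix list genes that were higher, and Cdh1 (-5.08) among 3 that were lower. Foxd1 (-5.47), Msx1 (-4.26) and Tcf21 (-3.44) led 10 of 20 other mesenchymal factors that were lower, with Osr1 (2.33) the one that was higher. Tcf4 (-1.62), Tcf12 (-1.46) and Id4 (-1.15) were lower and Id3 (1.17) higher among 7 bHLH genes. Of 4 paired-type relatives Alx4 was lower (-1.74), of 6 myogenic factors 5 were lower, led by Myf5 (-6.48), and no brown fat gene was called.

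The genes whose levels ran most nearly parallel to each of the 4 were ranked by Pearson's r of log2(CPM + 1) across 15 10× sums and 12 Smart-seq2 sums, averaged over the platforms, among 10917 genes that reached 10 CPM on both. The sums of a pool share a library, and r is a description without a test. For Twist2 these were Pth1r (r = 0.928), Col8a1 (0.926), Pappa2 (0.921), Slit3 (0.905) and Mme (0.898), of which Pth1r is a DF marker used for naming. For Twist1 they were Nfatc4 (0.899), Crispld2 (0.894), Wls (0.884), Cdh11 (0.884) and Prrx1 (0.872), with Prrx2 in place 8. For Prrx1 they were Cdc42ep5 (0.918), Ddr2 (0.917), Vamp8 (0.912), Zfp36l2 (0.909) and Ptbp1 (0.904), and for Prrx2 Runx2 (0.921), Crispld2 (0.896), Rarg (0.892), Cped1 (0.883) and Cxcl12 (0.879). The r of Twist1 was 0.466 with Twist2, 0.893 with Prrx1 and 0.748 with Prrx2 on 10×, and 0.953, 0.850 and 0.981 on Smart-seq2, so that their order depended on the platform. Over the 18 bulk libraries and 10804 genes the nearest to Twist2 were Mapk11 (0.944), Nkd1 (0.937), Pdia5 (0.930), Tead2 (0.930) and Wnt5a (0.929), to Prrx1 Pdgfrb (0.989), Ccnd1 (0.987), Chst12 (0.986), Sfxn3 (0.986) and Myof (0.983), and to Twist1 Ankrd28 (0.979), Fam107b (0.978), Magi1 (0.973), Cdkn2aip (0.970) and Ezh1 (0.969). Prrx2 did not reach 10 CPM in bulk and was not ranked.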

How the data were processed

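The 10× UMI counts were deposited by the authors after Cell Ranger, and the Smart-seq2 expected counts were deposited by the authors after kallisto 0.44.0 and tximport. The bulk counts are deposited whole-number counts, whose aligner is not given in the sources used here; the notes of the submitters name mm10. In 16 of the 18 bulk columns the sign of the Thy1 gate was lost, so the planned tests between gates were not run and 3 tests over both gates were added. The 4 genes and the lists were chosen with earlier results of these data known.

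Cells without a YFP count, cells with over 8% mitochondrial counts, Smart-seq2 cells under 4000 genes and 10× cells over 15000 UMIs were left out. Clusters (Seurat 5.3.0, resolution 0.8) were named from marker z-scores of at least 0.2 with a lead of 0.2. The doublet caller marked 8, 9 and 8 cells of the 10× libraries, which were kept. Counts were summed per class and pool (at least 20 cells; Smart-seq2 sums rounded) and tested with edgeR 4.0.16 (quasi-likelihood, TMM, filterByExpr, Benjamini-Hochberg, adjusted p under 0.05, R 4.3.3), with DESeq2 1.42.0 as an alternative. On simulated counts the share of false calls ran above the nominal level for most class comparisons. Named list genes are up to 4 per list with the largest absolute log2 fold change past the threshold, and other named ones are marked as chosen after their values were seen. Levels are CPM, and correlations used log2(CPM + 1). No block was used in the main bulk fits. Sums of both gates of same-numbered ADM and DMEM replicates did not deviate together (r = -0.103, 0.0226 and -0.0132). With so few sums, which mix the gates in proportion to depth, this cannot show whether replicates are paired. Results of 1 list gene are not reported here.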

Additional observations from a re-analysis of the deposited data

Results flagged for a closer look

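The excess of Prrx1 in progenitor-like over EM-like cells changed with embryonic day, by -0.54 log2 units per day (SE 0.12, adjusted p = 0.0359, edgeR interaction), which drew attention as an effect that differed between stages. The progenitors were EP-like at E12.5 and LP-like later, so class and day cannot be told apart, and on 10× alone the change was -0.24 (adjusted p = 0.597). Its 10× level in progenitors was 328.2 CPM at E12.5 and 149.1 and 131.5 CPM later, and in EM-like cells 36.9, 28.04 and 29.3 CPM. On Smart-seq2 the progenitors had 527.6, 177.6 and 126.7 CPM and EM-like cells 43.2, 61.4 and 78.3 CPM.

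PE-like cells, which entered no comparison, held a signal of Prrx1 and Twist1 in the 10× library of E16.5. Prrx1 had 201.8 CPM (95% Poisson interval 100.8 to 361.2, 11 UMIs in 30 cells) and Twist1 128.4 CPM (51.6 to 264.7, 7 UMIs), while Twist2 had no UMI, which allows up to 55.05 CPM (3 counts; the upper end of its Poisson interval is 67.7 CPM). Smaller sets of PE-like cells did hold Twist2, at 50.5 CPM (18.5 to 110, 6 UMIs in 13 cells) at E14.5 on 10× and 13.8 CPM in 15 cells at E16.5 on Smart-seq2. EM-like cells of that library had 29.3 CPM of Prrx1 and 3.67 CPM of Twist1. The LP markers summed to 1321 CPM in these PE-like cells, with Pdgfra, Cd34, Col14a1 and Dcn at 0, and their part in the result was not tested.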

How the results depend on the processing

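Of 664 values of the 4 genes recomputed under alternatives, 575 kept their direction and side of the threshold, 30 lost the call, 33 gained it and 26 changed sign. The cause of these changes was not tested, except that one platform alone leaves fewer sums. Alternatives to the bulk tests and to both interactions with day, and those that leave out clusters, were chosen after seeing the data. Shares of genes called are given as percent of the genes tested.

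With Smart-seq2 sums alone, 0.818% of genes were called for DF-like against LP-like, with Twist1 at 2.01, Prrx1 at 1.17 and Prrx2 at 1.21 (log2 fold changes) no longer called. For progenitor-like against EM-like cells 0.611% were called, and Twist1 (5.56), Twist2 (7.45), Prrx1 (1.91) and Prrx2 (4.24) were not. For LM-like against EM-like cells 6.35% were called, without Prrx1 (-2.38). EdgeR called 0 genes for LP-like against EP-like cells, 0.0927% for EM-like cells per day and 0 for the progenitor and EM-like interaction, where Prrx1 (-0.67) was not called and Prrx2 changed sign (-0.12). With 10× sums alone the shares for the same 6 comparisons were 8.84%, 32.5%, 19.8%, 2.38%, 1.90% and 2.97%. There Prrx1 lost its call for LM-like against EM-like (-1.33) and in the interaction (-0.24), Twist1 was called in the interaction (1.00) and changed sign for LM-like against EM-like (0.22), and Prrx1 per day in EM-like cells changed sign (-0.041).

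With DESeq2 the shares were 9.84% for LP-like against EP-like (Twist1 -1.36 and Prrx1 -1.27, both called), 0.941% for LP-like cells over time, 6.33% for EM-like cells per day (Twist2 -1.44, called), 1.00% for the DF-like interaction with day (Prrx1 -0.0029, opposite sign), 5.09% for the progenitor interaction and 14.2% for ADM against DMEM (Twist2 -2.63, called). Clustering at resolution 1.2 gave 9.11% for LP-like against EP-like, called Prrx2 in the DF-like interaction (1.22) and turned Twist2 for LM-like against EM-like to 0.32, as did resolution 0.4 (0.33) and all deposited cells (0.23, with Twist1 at 1.00). With list genes kept in clustering Twist1 was called in the progenitor interaction (1.19).

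With cluster 2 left out, 17.5% of genes were called for progenitor-like against EM-like, 1.95% for the DF-like interaction (Twist2 -0.54 and Prrx1 -0.31, both of opposite sign) and 10.7% for the progenitor interaction (Twist2 1.35, called, and Prrx2 -0.23, of opposite sign), and LP-like against EP-like gained Twist1 (-1.91), Prrx1 (-1.48) and Prrx2 (-2.14). With clusters 2 and 11 left out the shares were 3.28% for progenitor-like against EM-like (Twist1 3.53 and Twist2 5.22, not called), 16.2% for LP-like against EP-like (Twist1 -1.76, Prrx1 -1.17 and Prrx2 -1.94, called, and Twist2 0.60, of opposite sign) and 12.6% for the progenitor interaction (Twist1 1.08 and Twist2 1.88, called, and Prrx2 -0.060, of opposite sign). With cluster 8 left out 0.509% were called for EM-like cells per day (Prrx2 0.14, of opposite sign, and Twist1 and Twist2 not tested). In the progenitor interaction Prrx1 (-0.32) was then not called and Prrx2 (-0.60) changed sign.

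In bulk, the replicate block left 4.67% of genes called for ADM against DMEM in place of 9.16% and ended the Prrx1 call of DMEM against sorted cells (1.03). It changed no other call of the 4 genes. Whether libraries of a replicate number share embryos is not given in the sources used here. Same-numbered sums of both gates did not deviate together, which cannot show whether they are paired. Using only the libraries compared gave 5.69% for ADM against DMEM. Summing both libraries of a replicate number gave 26.5% there, with Twist2 (-2.57), Prrx1 (-0.34) and Prrx2 (-1.08) called, and 52.3% for Cd36+ against Pdgfra+ with Twist1 called (-0.95), and called Prrx2 (1.005) in DMEM against sorted cells. Without a filter on low counts Twist1 was -0.0054 for ADM against DMEM and Prrx1 (1.012) was not called for DMEM against sorted cells.

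Leaving out 1 pool or library at a time gave between 6.43% and 15.7% of genes called for DF-like against LP-like, 12.1% and 40.3% for progenitor-like against EM-like, 13.3% and 22.4% for LM-like against EM-like, 0 and 13.98% for LP-like against EP-like, 1.07% and 12.2% for EM-like cells per day, 0.259% and 8.18% for the DF-like interaction, 1.096% and 11.99% for the progenitor interaction, 3.08% and 15.9% for ADM against DMEM and 11.2% and 27.9% for Cd36+ against Pdgfra+. Log2 values ranged from 1.27 to 1.85 (Prrx2, DF-like against LP-like), from -1.35 to 0.18 (Twist1, LM-like against EM-like), and for LP-like against EP-like from -1.59 to -1.14 (Twist1) and -1.45 to -0.97 (Prrx1). Per day in EM-like cells they ranged from -1.75 to -1.42 for Twist1, in the 3 fits that tested it, and -1.99 to -0.57 for Twist2. In the DF-like interaction they ran from -0.061 to 0.55 for Twist2 and -0.13 to 0.34 for Prrx1, and in the progenitor interaction from 0.84 to 1.57 for Twist1, 0.69 to 1.90 for Twist2, -0.65 to -0.42 for Prrx1 and -0.18 to 0.38 for Prrx2. In bulk the ranges were -3.23 to -2.15 (Twist2) and -0.24 to 0.22 (Twist1) for ADM against DMEM, -5.50 to -4.42 (Twist2) for Cd36+ against Pdgfra+, and -1.17 to 0.037 (Twist2) and 0.85 to 1.25 (Prrx1) for DMEM against sorted cells.

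The leave-one-out fits of LP-like and DF-like cells over time, which leave no residual degree of freedom, single-platform fits of the DF-like interaction, fits of LP-like cells over time without cluster 2, and of the DF-like interaction without clusters 2 and 11 could not be made. The depth of the 10× libraries limits the low classes most, where 1 UMI was worth up to 12.99 CPM in LM-like cells.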
